A study of Mus musculus with 17 samples.

Results

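The genes described here are those of the mouse major histocompatibility complex (MHC) and its main helpers in antigen presentation, measured in brown adipose tissue (BAT), which burns lipid to make heat. They were taken as the protein-coding genes whose symbol starts with H2-, the prefix of the mouse MHC, together with B2m, Cd74, Tap1, Tap2, Tapbp, Psmb8, Psmb9, Psmb10, Nlrc5 and Ciita. This rule found 44 of the 55414 genes in the count table. Of these, 32 belong to the class I pathway and 11 to the class II pathway. The remaining member, H2-Ke6, lies in the MHC and carries its prefix but encodes a steroid dehydrogenase. A filter on low counts kept 29 members for testing, namely 19 of class I, 9 of class II and H2-Ke6, and each of the 29 had counts in all 17 libraries.

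The 15 members that were not tested had between 0 and 90 counts over all libraries together. They comprised the class II genes H2-Oa and H2-Eb2 and the class I genes H2-Q1, H2-Q2, H2-T3, H2-M1, H2-M2, H2-M5, H2-M11 and H2-M10.1 to H2-M10.6. The 6 H2-M10 genes had 0 counts in 1051 megacounts, a depth at which 0 counts allows a level of up to 0.00285 CPM (counts scaled to a common library size). A further 11 H2- rows of another gene type fell outside the rule. Among those was H2-Ea, the partner chain of H2-Eb1, with 0 counts in every library; C57BL/6 mice are known not to express it.

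The study profiled BAT RNA from C57BL/6J mice, a common inbred strain, in 4 groups. There were 5 libraries of mice with a conditional brown adipocyte knockout of Acbp (Acbp BAd-KO) on a high-fat diet (HFD), 5 of wild-type mice on HFD, 3 of Acbp BAd-KO mice on chow and 4 of wild-type mice on chow. The HFD supplied 45% of calories from fat and was given for 12 weeks, and the housing temperature in the labels was 22 °C. Acbp, listed as Dbi, encodes acyl-CoA-binding protein. The labels direct the deletion at brown adipocytes, so the immune and vascular cells of the depot were not its target; the sources used here do not give the Cre driver, the age of the mice or whether each sample is 1 animal, so p-values cover only sample-to-sample spread, which may be technical.

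Dbi had 111 to 165 CPM in HFD BAd-KO libraries against 658 to 795 CPM in HFD wild-type libraries, and 88.3 to 103 CPM in chow BAd-KO libraries against 949 to 1104 CPM in chow wild-type libraries. A list of 12 brown adipocyte markers summed to between 4883 and 7789 CPM in every library. Library totals were 60.2 to 101 megacounts in HFD BAd-KO, 60.0 to 105 in HFD wild-type, 47.2 to 49.7 in chow BAd-KO and 39.6 to 43.9 in chow wild-type. The library numbers in the labels fell into 4 runs that no diet shared, so diet, run and depth cannot be told apart. On HFD, BAd-KO libraries 2 to 5 formed 1 run, and BAd-KO library 1 shared a run with all wild-type libraries. On chow, wild-type libraries 1 and 2 formed 1 run, and wild-type libraries 3 and 4 shared a run with all BAd-KO libraries. Skeletal muscle markers summed to 5192 CPM in HFD BAd-KO library 2 and to 3245 CPM in HFD wild-type library 1, out of a range of 2.25 to 5192 CPM, and hepatocyte markers ranged from 23.7 to 346 CPM.

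Class I molecules consist of a heavy chain bound to β2-microglobulin (B2m) and carry peptides from inside the cell to the surface of almost every cell type. The immunoproteasome subunits Psmb8, Psmb9 and Psmb10 cut those peptides, the Tap1 and Tap2 transporter moves them into the endoplasmic reticulum, and tapasin (Tapbp) loads them. Class II molecules consist of an α and a β chain, are guarded by the invariant chain Cd74 until they reach the endosome, and are made mainly by dendritic cells, B cells and activated macrophages. Ciita is the transactivator of class II genes and Nlrc5 that of class I genes, and both act through factors bound to a shared promoter module that includes the Y box. Macrophages and other leukocytes live among the adipocytes of BAT, so a bulk sample holds both classes.

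The promoters of class II and class I chains are shown because the 2 classes differed in their diet response and because H2-Q10 was the class I chain called lower on HFD. The RefSeq table gives 250 bases before and 50 bases after each gene start, on chromosome 17 of GRCm38.p6, and it matched 37 of the 44 members and 23 of the 29 tested. Capitals mark matches to the Y box (CTGATTGG, or CCAATCAG on the other strand), to a κB core (GGGATTCCC) and to an interferon response core (GAAGTGAAA, read here as TTTCACTTC). All sequences run 5′ to 3′ on the strand of the gene.
H2-Aa, chr17:34287774-34288073, minus strand: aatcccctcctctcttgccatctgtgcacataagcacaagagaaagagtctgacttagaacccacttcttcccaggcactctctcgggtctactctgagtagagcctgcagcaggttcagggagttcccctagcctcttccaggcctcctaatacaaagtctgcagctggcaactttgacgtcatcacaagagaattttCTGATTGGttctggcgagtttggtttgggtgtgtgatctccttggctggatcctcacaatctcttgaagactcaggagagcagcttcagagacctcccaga
H2-Eb1, chr17:34305617-34305916, plus strand: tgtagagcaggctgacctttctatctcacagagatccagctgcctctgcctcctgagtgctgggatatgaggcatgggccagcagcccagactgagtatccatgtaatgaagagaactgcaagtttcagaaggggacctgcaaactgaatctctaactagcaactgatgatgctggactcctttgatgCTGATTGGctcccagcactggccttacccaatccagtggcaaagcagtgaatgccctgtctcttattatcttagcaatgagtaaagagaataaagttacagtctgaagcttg
H2-K1, chr17:34000284-34000583, minus strand: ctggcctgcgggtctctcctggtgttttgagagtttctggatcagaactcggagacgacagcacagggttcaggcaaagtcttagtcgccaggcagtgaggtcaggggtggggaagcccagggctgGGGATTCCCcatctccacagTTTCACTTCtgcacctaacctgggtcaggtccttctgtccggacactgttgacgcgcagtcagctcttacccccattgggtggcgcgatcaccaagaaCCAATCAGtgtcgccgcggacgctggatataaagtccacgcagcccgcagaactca
H2-D1, chr17:35262844-35263143, plus strand: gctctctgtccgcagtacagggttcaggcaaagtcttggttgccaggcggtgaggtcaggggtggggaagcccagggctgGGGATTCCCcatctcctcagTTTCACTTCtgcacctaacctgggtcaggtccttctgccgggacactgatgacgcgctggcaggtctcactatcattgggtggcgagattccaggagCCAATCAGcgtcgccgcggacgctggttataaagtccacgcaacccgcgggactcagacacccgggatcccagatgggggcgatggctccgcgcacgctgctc
H2-Q10, chr17:35469839-35470138, plus strand: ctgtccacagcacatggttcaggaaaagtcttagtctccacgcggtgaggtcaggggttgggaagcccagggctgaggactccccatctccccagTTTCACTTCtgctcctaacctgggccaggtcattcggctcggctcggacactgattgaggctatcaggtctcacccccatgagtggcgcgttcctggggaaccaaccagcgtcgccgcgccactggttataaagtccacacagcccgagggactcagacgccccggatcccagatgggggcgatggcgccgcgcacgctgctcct

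Both class II promoters shown held the Y box in the orientation CTGATTGG and neither core of the other motifs. The only other class II genes with a Y box match were H2-Eb2 and H2-Oa, which were not tested. H2-K1 and H2-D1 held all 3 motifs in the same order, κB core, interferon response core and Y box, and their promoters were identical at 87.7% of 253 aligned bases. The H2-Q10 promoter was identical to that of H2-K1 at 84.5% of 245 aligned bases, yet of these motifs it held the interferon response core alone. Searched on both strands, the Y box was in 4.1% of 32851 promoters, the κB core in 0.353% and the interferon response core in 0.505%. Among members with a promoter in the table, the Y box was in 4 of 8 class II and 15 of 28 class I genes, and the κB core was in 4 class I genes, H2-K1, H2-D1, H2-Q6 and H2-Q7. The interferon response core was in 7 of 28 class I and 0 of 8 class II genes. H2-Q4 and H2-M3 also held this core without the Y box or κB core. Their log2 fold changes on HFD were positive (0.65 and 0.57 in BAd-KO, 0.56 and 0.72 in wild-type mice, not called), unlike those of H2-Q10. A match is a description of letters only.

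Class II transcripts were higher on HFD than on chow in both genotypes, whereas most class I transcripts were not called in either direction. A gene was called at an adjusted p of 0.05 or less in edgeR's quasi-likelihood test with Benjamini-Hochberg adjustment over all 17717 genes tested. In BAd-KO mice 6 of 9 class II members were called higher on HFD and 0 lower, beside 12.8% of all genes called higher and 13.1% called lower. In wild-type mice 6 of 9 were called higher and 0 lower, beside 16.9% of all genes called higher and 15.2% called lower. Cd74, H2-Aa, H2-Eb1, H2-DMb1 and Ciita were called in both genotypes, so 5 class II calls were shared. The median log2 fold change of the 9 class II members was 0.76 in BAd-KO and 0.80 in wild-type mice, against 0.09 and 0.23 for the 19 class I members and 0.03 and 0.02 for all genes.

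Cd74, the invariant chain, stood at 89.9, 105, 109, 73.3 and 148 CPM in HFD BAd-KO libraries 1 to 5, against 55.6, 57.5 and 72.7 CPM in chow BAd-KO libraries 2 to 4. In wild-type mice it stood at 134, 101, 123, 78.8 and 109 CPM in HFD libraries 1 to 5, against 66.3, 61.6, 54.6 and 52.9 CPM in chow libraries 1 to 4. Every HFD library lay above every chow library of its genotype, although HFD BAd-KO library 4, at 73.3 CPM, lay close to chow BAd-KO library 4, at 72.7 CPM. The log2 fold change was 0.76 ± 0.20 in BAd-KO (SE, adjusted p = 0.00981 in edgeR's quasi-likelihood test) and 0.89 ± 0.18 in wild-type mice (adjusted p = 0.00145). Without chow BAd-KO library 2 the BAd-KO value was 0.69 and missed the threshold (adjusted p = 0.0505).

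**Figure D1:**
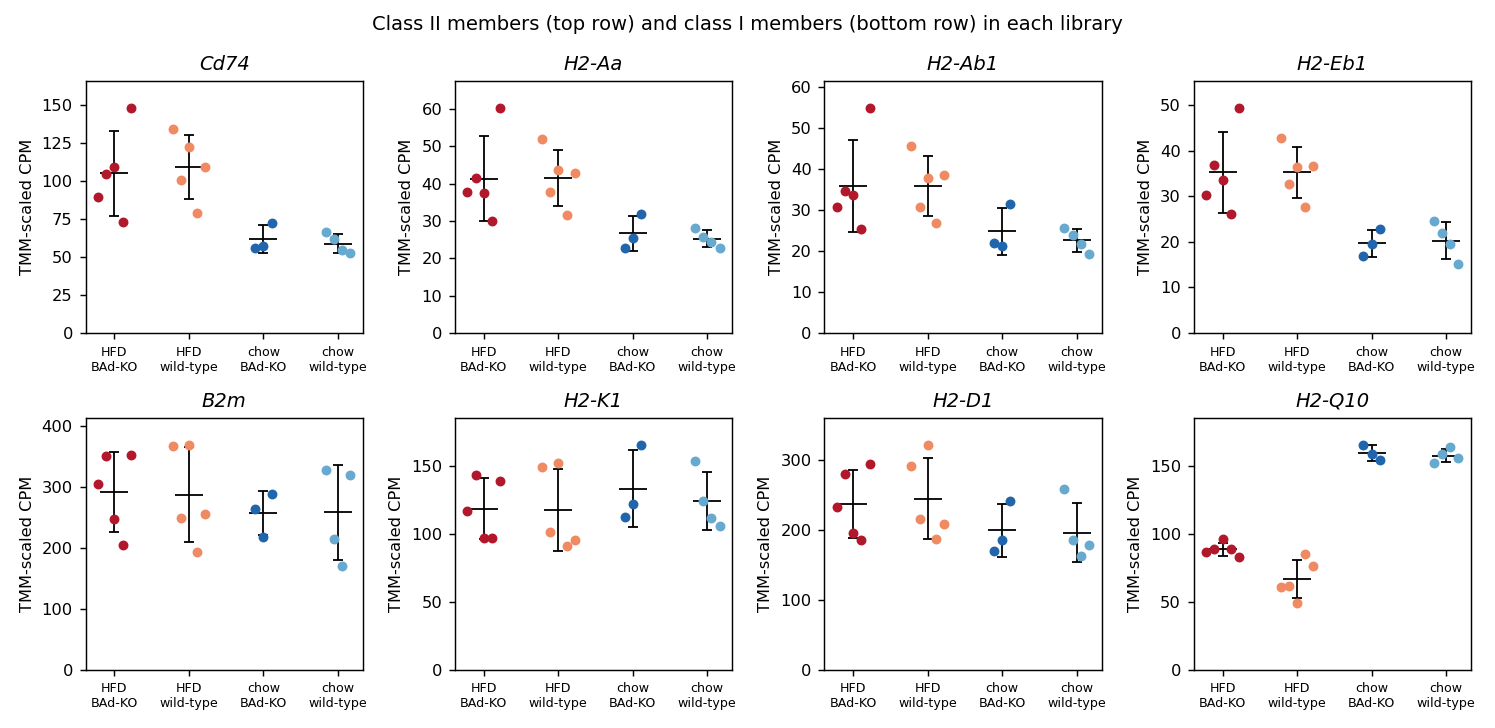
TMM-scaled CPM of 4 class II members (top) and 4 class I members (bottom) in each library, with HFD BAd-KO, HFD wild-type, chow BAd-KO and chow wild-type from left to right; points are libraries, and black bars are the mean ± SD of 5, 5, 3 and 4 libraries. Cd74 and H2-Eb1 were higher on HFD without overlap within a genotype, H2-Q10 was lower on HFD, and B2m, H2-K1 and H2-D1 overlapped between diets.

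The β chain gene H2-Eb1 stood at 30.3, 36.7, 33.5, 26.2 and 49.3 CPM in HFD BAd-KO libraries, against 16.8, 19.5 and 22.7 CPM in chow BAd-KO libraries. In wild-type mice it stood at 42.8, 32.7, 36.5, 27.6 and 36.7 CPM in HFD libraries, against 24.6, 21.8, 19.5 and 15.1 CPM in chow libraries. The diets did not overlap in either genotype, and the log2 fold change was 0.84 ± 0.20 in BAd-KO (adjusted p = 0.00541 in edgeR's quasi-likelihood test) and 0.80 ± 0.18 in wild-type mice (adjusted p = 0.00298). Its α chain partner H2-Ea was at 0 counts, so the H2-Eb1 transcript was present without that of its partner.

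H2-Aa, the α chain of the class II molecule that C57BL/6 mice do make, stood at 37.6, 41.4, 37.6, 30.0 and 60.2 CPM in HFD BAd-KO libraries, against 22.7, 25.4 and 31.8 CPM in chow BAd-KO libraries. In wild-type mice H2-Aa stood at 52.0, 37.7, 43.5, 31.5 and 42.8 CPM in HFD libraries, against 28.1, 25.8, 24.5 and 22.8 CPM in chow libraries. Its fold changes were 0.63 ± 0.19 in BAd-KO (log2, adjusted p = 0.0230 in edgeR's quasi-likelihood test) and 0.72 ± 0.17 in wild-type mice (adjusted p = 0.00539). The diets overlapped in BAd-KO mice, where HFD library 4 lay below chow library 4, and did not overlap in wild-type mice.

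H2-Ab1, the matching β chain, averaged 35.8 ± 11.2 CPM in HFD BAd-KO and 24.9 ± 5.74 CPM in chow BAd-KO libraries (SD, n = 5 and 3). It averaged 35.9 ± 7.25 CPM in HFD wild-type and 22.6 ± 2.80 CPM in chow wild-type libraries (n = 5 and 4). Its log2 fold change was 0.53 ± 0.22 in BAd-KO, not called (adjusted p = 0.0873 in edgeR's quasi-likelihood test), and 0.67 ± 0.20 in wild-type mice, called (adjusted p = 0.0183). Without HFD BAd-KO library 4 the BAd-KO value was called (0.63, adjusted p = 0.0422), and without chow wild-type library 4 the wild-type value was not (0.60, adjusted p = 0.0536).

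The peptide exchange genes were measured at low levels. H2-DMb1, the β chain of the H2-M editor that swaps peptides in the endosome, ranged from 1.75 to 4.01 CPM in HFD BAd-KO against 1.01 to 2.12 CPM in chow BAd-KO libraries, and from 2.08 to 4.59 CPM in HFD wild-type against 1.54 to 1.97 CPM in chow wild-type libraries. It rose by 1.03 ± 0.29 (log2) in BAd-KO and by 0.92 ± 0.26 in wild-type mice. H2-DMa, its α chain, rose in BAd-KO mice (0.57 ± 0.20, adjusted p = 0.0439 in edgeR's quasi-likelihood test) and was not called in wild-type mice (0.45 ± 0.18, adjusted p = 0.0694). The BAd-KO call of H2-DMa held in 8 of 18 alternatives and was lost in 5 of the 8 that left out 1 library, with fold changes of 0.48 to 0.72 in those 8. H2-DMb2, a second β chain, and H2-Ob, a chain of the inhibitor H2-O, were below 1 CPM in every library and not called, at 0.74 and 0.92 in BAd-KO and 0.77 and 1.08 in wild-type mice.

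Ciita, the class II transactivator, stood at 3.55, 3.62, 4.23, 2.84 and 6.91 CPM in HFD BAd-KO libraries, against 1.99, 2.25 and 2.42 CPM in chow BAd-KO libraries. In wild-type mice Ciita stood at 4.21, 2.42, 4.25, 2.77 and 4.10 CPM in HFD libraries, against 2.03, 2.44, 1.59 and 1.78 CPM in chow libraries. The BAd-KO diets did not overlap, and in wild-type mice HFD library 2 lay just below chow library 2. Its log2 fold change was 0.93 ± 0.27 in BAd-KO (adjusted p = 0.0175 in edgeR's quasi-likelihood test) and 0.86 ± 0.24 in wild-type mice (adjusted p = 0.0133). With limma-voom neither Ciita (0.93 in BAd-KO and 0.82 in wild-type mice, adjusted p = 0.0610 and 0.0775) nor H2-DMb1 (1.08 and 0.83, adjusted p = 0.0543 and 0.0713) was called.

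The class II calls in BAd-KO mice depended on the 3 chow BAd-KO libraries. Without chow BAd-KO library 2, 1 class II member was called higher, and without chow BAd-KO library 3, 2 were, while the fold changes of Cd74, H2-Aa, H2-DMb1 and Ciita stayed between 0.53 and 0.95. In these fits all members called numbered 3 and 4, in place of 8. Counts over all genes were not taken for these fits, so the drop may not be particular to class II members. In wild-type mice 6 or 7 class II members were called whichever library was left out.

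**Figure D2:**
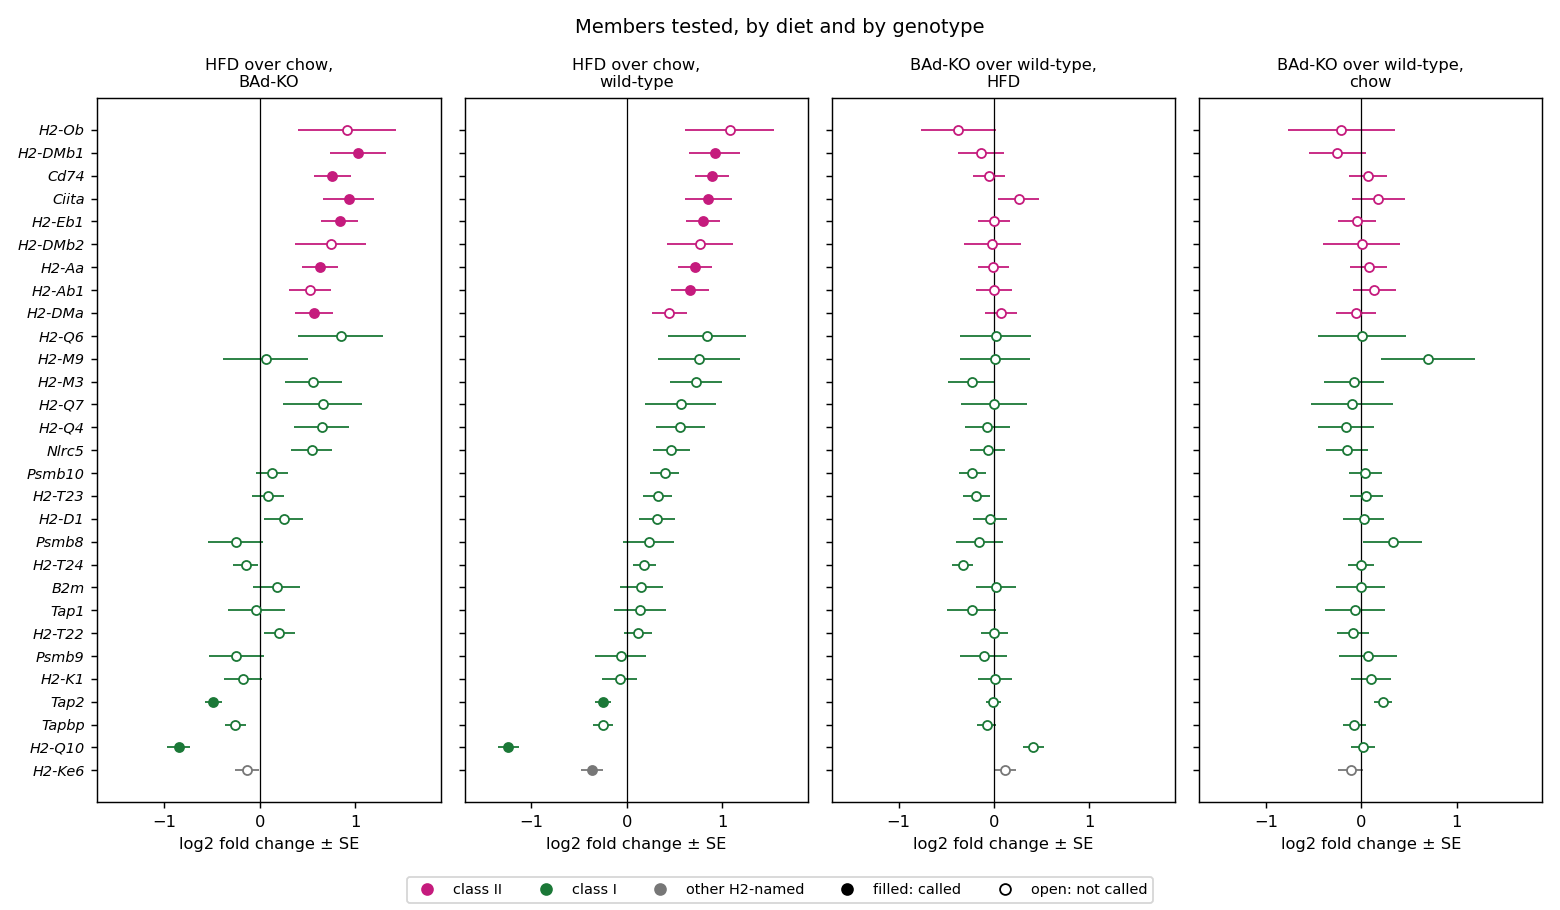
Log2 fold change ± SE of the 29 tested members for HFD over chow in BAd-KO mice, HFD over chow in wild-type mice, BAd-KO over wild-type on HFD and BAd-KO over wild-type on chow, from left to right; filled points were called. Class II members lay above 0 in both diet comparisons, class I members lay on both sides, and 0 of the 29 were called by genotype.

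Of the 19 class I members, 0 were called higher on HFD in either genotype and 2, H2-Q10 and Tap2, were called lower in both. At an unadjusted p under 0.05, in either direction, there were 5 in BAd-KO and 8 in wild-type mice. Of all 17717 genes, 6697 and 7515 were under that level. DESeq2 called 1 and 2 class I members higher, beside 2657 and 3274 of all genes. Over both classes and H2-Ke6, 8 of 29 members were called in BAd-KO mice beside 25.8% of all genes, and 9 of 29 in wild-type mice beside 32.1%, shares near the background. Among tested members whose diets did not overlap in BAd-KO mice, 4 class II and 1 class I members were higher beside 15.5% of all genes, and 3 class I members were lower beside 16.1%. In wild-type mice 6 class II and 1 class I members were higher without overlap beside 13.6% of all genes, and 2 class I members were lower beside 11.1%.

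The classical heavy chain H2-K1 stood at 117, 143, 96.8, 96.8 and 139 CPM in HFD BAd-KO libraries, against 113, 122 and 166 CPM in chow BAd-KO libraries. In wild-type mice it stood at 149, 101, 152, 90.8 and 95.6 CPM in HFD libraries, against 154, 124, 112 and 106 CPM in chow libraries. The diets overlapped throughout, and the log2 fold change was -0.17 ± 0.20 in BAd-KO and -0.07 ± 0.18 in wild-type mice, not called. The sign turned without chow BAd-KO library 4 (0.02), without chow wild-type library 1 (0.05), without HFD wild-type library 4 (0.0060), and with scaling by library totals (0.09 in BAd-KO and 0.41 in wild-type mice).

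H2-D1, the other classical heavy chain, averaged 237 ± 48.8 CPM in HFD BAd-KO and 199 ± 37.6 CPM in chow BAd-KO libraries, and 244 ± 58.3 CPM in HFD wild-type and 196 ± 42.2 CPM in chow wild-type libraries (SD, n = 5, 3, 5 and 4). B2m, the light chain, averaged 292 ± 65.1 CPM in HFD BAd-KO and 257 ± 36.2 CPM in chow BAd-KO libraries, and 288 ± 78.2 CPM in HFD wild-type and 258 ± 77.7 CPM in chow wild-type libraries. For both genes the diets overlapped. The log2 fold change of H2-D1 was 0.25 ± 0.21 in BAd-KO and 0.32 ± 0.19 in wild-type mice, that of B2m was 0.18 ± 0.25 and 0.15 ± 0.23, and none was called. Without chow wild-type library 3 the wild-type B2m value was -0.00024.

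Nlrc5, the class I transactivator, ranged from 10.1 to 16.0 CPM in HFD BAd-KO against 7.12 to 8.94 CPM in chow BAd-KO libraries, and from 8.98 to 16.2 CPM in HFD wild-type against 6.35 to 11.4 CPM in chow wild-type libraries. Its log2 fold changes of 0.55 ± 0.21 in BAd-KO and 0.46 ± 0.19 in wild-type mice were not called (adjusted p = 0.0714 and 0.0793 in edgeR's quasi-likelihood test). The wild-type value was called without chow wild-type library 1 (0.62, adjusted p = 0.0333) and without HFD wild-type library 4 (0.56, adjusted p = 0.0387). The number of class I members called higher in wild-type mice was 5 without chow wild-type library 1, 3 without HFD wild-type library 4 and 1 without HFD wild-type library 5, and in BAd-KO mice it was 2 without chow BAd-KO library 4. Counts over all genes were not taken for these fits either.

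Among the peptide supply genes, Tap2, a subunit of the peptide transporter, fell on HFD. It ranged from 16.9 to 22.2 CPM in HFD BAd-KO against 25.5 to 30.3 CPM in chow BAd-KO libraries, and from 16.7 to 21.8 CPM in HFD wild-type against 22.2 to 24.4 CPM in chow wild-type libraries, with no overlap in either genotype. Its log2 fold change was -0.48 ± 0.09 in BAd-KO (adjusted p = 0.00146 in edgeR's quasi-likelihood test) and -0.25 ± 0.09 in wild-type mice (adjusted p = 0.0370). The wild-type call was lost without chow wild-type library 1, 2 or 3 or HFD wild-type library 4 or 5, and with scaling by library totals the BAd-KO value was -0.22 and the wild-type value 0.23, neither called.

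Tap1, the other transporter subunit, and the immunoproteasome genes Psmb8, Psmb9 and Psmb10 had log2 fold changes of -0.25 to 0.13 in BAd-KO and of -0.06 to 0.40 in wild-type mice, and 0 of the 4 were called. Tapbp, the peptide loader, averaged 101 ± 6.34 CPM in HFD BAd-KO and 120.1 ± 5.07 CPM in chow BAd-KO libraries, and 106 ± 16.3 CPM in HFD wild-type and 126 ± 16.1 CPM in chow wild-type libraries. Its log2 fold change was -0.25 ± 0.11 in BAd-KO and -0.25 ± 0.10 in wild-type mice, not called (adjusted p = 0.111 and 0.0764 in edgeR's quasi-likelihood test).

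The non-classical chains H2-Q4, H2-Q6 and H2-Q7 had positive log2 fold changes on HFD of 0.65, 0.85 and 0.66 in BAd-KO and of 0.56, 0.84 and 0.56 in wild-type mice, with SEs of 0.26 to 0.45, and 0 of the 3 were called. H2-Q6 stood at 8.32, 19.2, 8.85, 7.68 and 10.1 CPM in HFD BAd-KO libraries against 5.55, 4.79 and 7.70 CPM in chow BAd-KO libraries, and at 20.4, 10.4, 7.54, 7.21 and 7.96 CPM in HFD wild-type against 11.9, 4.58, 3.01 and 4.44 CPM in chow wild-type libraries. The highest H2-Q6 values on HFD were those of BAd-KO library 2 and wild-type library 1, the 2 HFD libraries with the highest muscle marker sums, whose part in the result was not tested. HFD BAd-KO libraries 4 and 5 also held muscle markers, 1340 and 1560 CPM, with H2-Q6 at 7.68 and 10.1 CPM. Chow wild-type library 3 had the highest muscle sum on chow, 1246.5 CPM, and the lowest H2-Q6 value of all libraries, 3.01 CPM. H2-T22, H2-T23 and H2-T24, chains of the T region, had log2 fold changes of -0.15 to 0.21 in BAd-KO and of 0.12 to 0.32 in wild-type mice and were not called. Class I heavy chains are close copies of each other, so their counts may trade reads.

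H2-Q10, which encodes a secreted class I chain known mainly from the liver, fell on HFD in both genotypes. It stood at 86.7, 88.8, 96.0, 88.9 and 83.1 CPM in HFD BAd-KO libraries, against 165, 159 and 154 CPM in chow BAd-KO libraries. In wild-type mice it stood at 61.0, 61.6, 49.1, 84.9 and 76.4 CPM in HFD libraries, against 152, 159, 164 and 156 CPM in chow libraries. No HFD library reached the lowest chow library, and the 7 chow libraries lay between 152 and 165 CPM. The log2 fold change was -0.85 ± 0.12 in BAd-KO (adjusted p = 0.000148 in edgeR's quasi-likelihood test) and -1.24 ± 0.11 in wild-type mice (adjusted p = 1.99e-06).

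Hepatocyte transcripts varied between libraries, and their part in the H2-Q10 result was not tested across them. Albumin (Alb), the defining hepatocyte transcript, stood at 0.0845, 0.274, 0 and 0.816 CPM in chow wild-type libraries 1 to 4, in which H2-Q10 was at 152 to 164 CPM. On HFD 0 of 18 hepatocyte markers were called in BAd-KO mice and 14 of 18 were called higher in wild-type mice, beside 16.9% of all genes there. HFD wild-type libraries held a sum of 23.7 to 273 CPM of these markers, against 51.5 to 53.2 CPM in chow wild-type libraries. Alb made up at most 0.816 CPM of the chow wild-type sums, so most of these came from other genes of the list. The lowest sum, 23.7 CPM, was that of HFD wild-type library 4, with Alb at 0.465 CPM. A low or middle sum is therefore no measure of hepatocyte RNA. The drop of H2-Q10 was called in both genotypes without the 3 HFD libraries richest in hepatocyte transcripts. All 3 are on the diet where H2-Q10 was lower, so leaving them out cannot show what part hepatocyte transcripts had.

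**Figure D3:**
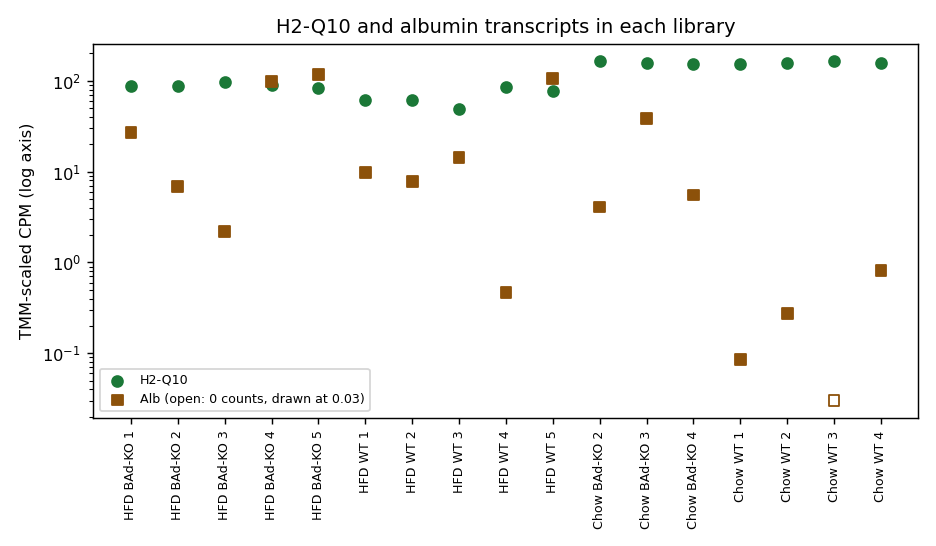
TMM-scaled CPM (log axis) of H2-Q10 (circles) and Alb (squares) in each of the 17 libraries, with the open square for a library with 0 Alb counts. H2-Q10 lay between 152 and 165 CPM in all chow libraries and between 49.1 and 96.0 CPM in all HFD libraries, while Alb varied between 0 and 117 CPM within and across groups.

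H2-Ke6, the steroid dehydrogenase that is no MHC molecule, averaged 49.2 ± 6.29 CPM in HFD BAd-KO and 54.0 ± 1.01 CPM in chow BAd-KO libraries, and 45.3 ± 6.54 CPM in HFD wild-type and 58.3 ± 7.98 CPM in chow wild-type libraries. It was not called in BAd-KO mice (log2 fold change -0.13 ± 0.13) and fell in wild-type mice (-0.36 ± 0.12, adjusted p = 0.0240 in edgeR's quasi-likelihood test). The wild-type call was lost without chow wild-type library 2 or 3 or HFD wild-type library 3, and with scaling by library totals the values were 0.13 in BAd-KO and 0.10 in wild-type mice.

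The contrast between classes was also present in counts within a library, which need no scaling between libraries. H2-Aa, H2-Ab1 and H2-Eb1 together had 26.7 to 37.9 counts per 100 counts of H2-K1 and H2-D1 in HFD BAd-KO libraries, against 21.1 to 21.7 in chow BAd-KO libraries. The ratio was 24.9 to 38.8 in HFD wild-type libraries, against 19.0 to 23.9 in chow wild-type libraries. Diets did not overlap in either genotype, and the genotypes overlapped on HFD and on chow. Cd74 had 29.5 to 44.2 counts per 100 B2m counts in HFD BAd-KO against 21.1 to 26.4 in chow BAd-KO libraries, and 33.2 to 42.5 in HFD wild-type against 16.5 to 31.9 in chow wild-type libraries, again without overlap. A ratio of counts compares libraries and not the abundance of genes, whose lengths differ.

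**Figure D4:**
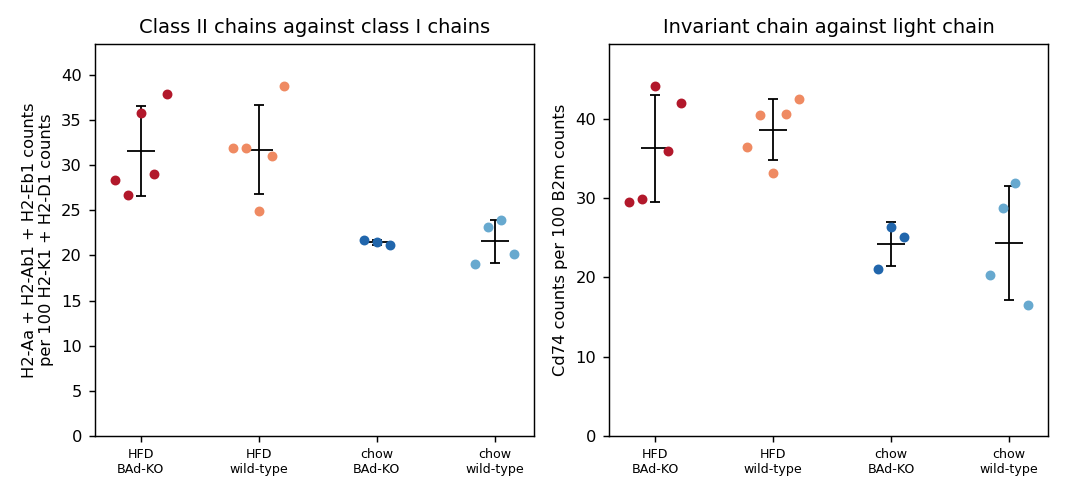
Class II chain counts per 100 class I chain counts (left) and Cd74 counts per 100 B2m counts (right) in each library; points are libraries and black bars the mean ± SD of 5, 5, 3 and 4 libraries for HFD BAd-KO, HFD wild-type, chow BAd-KO and chow wild-type. The left ratio was at least 24.9 in HFD libraries and at most 23.9 in chow libraries.

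Summed over members, class II transcripts reached 229 ± 61.9 CPM in HFD BAd-KO and 140 ± 23.6 CPM in chow BAd-KO libraries, and 233 ± 43.5 CPM in HFD wild-type and 134 ± 15.3 CPM in chow wild-type libraries. Class I transcripts summed to 976 ± 163 CPM in HFD BAd-KO and 993 ± 107 CPM in chow BAd-KO libraries, and to 969 ± 196 CPM in HFD wild-type and 984 ± 145 CPM in chow wild-type libraries. With TMM the class I sum, which includes H2-Q10, differed between diets by less than its SD. With library totals the class I sum was 1035 ± 178 CPM in HFD BAd-KO and 877 ± 127 CPM in chow BAd-KO libraries, and 1148 ± 308 CPM in HFD wild-type and 832 ± 157 CPM in chow wild-type libraries. Without H2-Q10 the TMM-scaled class I sum was 887 ± 165 CPM in HFD BAd-KO and 834 ± 112 CPM in chow BAd-KO libraries, and 902 ± 208 CPM in HFD wild-type and 827 ± 149 CPM in chow wild-type libraries.

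Scaling shifted gene levels between diets. With library totals in place of TMM factors the median of all genes moved by 0.27 in BAd-KO and 0.48 in wild-type mice, and calls over all genes numbered 5322 higher and 553 lower in BAd-KO mice, in place of 2260 and 2319. In wild-type mice they numbered 10497 higher and 426 lower, in place of 2986 and 2699. Class I members called higher then numbered 2 in BAd-KO and 13 in wild-type mice. Class II medians of 1.03 in BAd-KO and 1.27 in wild-type mice stood above class I medians of 0.35 and 0.71.

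No tested member was called between genotypes in edgeR's quasi-likelihood test. On HFD 0 of 29 members were called between BAd-KO and wild-type mice, beside 0.536% of all genes. At an unadjusted p under 0.05 there were 2, beside 2256 of all 17717 genes. On chow 0 of 29 were called, beside 1.06% of all genes, with 1 at an unadjusted p under 0.05, beside 2692 of all genes. The genotype by diet interaction (0.0903% of all genes called) and the genotype effect averaged over diets (2.86% of all genes called) also gave 0 calls among the 29. Each had 1 member at an unadjusted p under 0.05, beside 1837 and 3296 of all genes. Of the alternative tools, DESeq2 called 1 member on HFD, H2-Q10, and 0 in the other 3 genotype comparisons, and limma-voom called 0 in each. Over all genes DESeq2 called 264 higher and 324 lower between genotypes on HFD.

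Class II log2 fold changes for BAd-KO over wild-type lay between -0.37 and 0.26 on HFD and between -0.25 and 0.18 on chow. For Cd74 they were -0.05 ± 0.16 on HFD and 0.07 ± 0.20 on chow, for H2-Aa -0.01 ± 0.16 and 0.08 ± 0.20, and for Ciita 0.26 ± 0.22 and 0.18 ± 0.28. The classical class I chain H2-K1 had 0.01 ± 0.17 on HFD and 0.11 ± 0.21 on chow, and B2m had 0.02 ± 0.21 and -0.01 ± 0.26. The SEs leave room for differences of this size in either direction, and a missed threshold does not show equal levels.

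H2-Q10 had the smallest adjusted p between genotypes. On HFD 4 of 5 BAd-KO libraries lay above all wild-type libraries, and wild-type library 4 lay above BAd-KO library 5, for a log2 fold change of 0.41 ± 0.11 (adjusted p = 0.0949 in edgeR's quasi-likelihood test). DESeq2 called it (0.42, adjusted p = 0.0107), and so did edgeR without HFD wild-type library 4 (0.52, adjusted p = 0.0275). BAd-KO library 1, which shared its run of library numbers with the wild-type libraries, stood at 86.7 CPM against 49.1 to 84.9 CPM in those. A fit with the run as a term gave 0.38, not called. That fit called 0 of all 17717 genes higher and 1 lower on HFD, so it could call hardly any gene. Neither value tells run and genotype apart. On chow the log2 fold change was 0.02 ± 0.13, and the interaction of 0.40 ± 0.17 was not called (adjusted p = 0.423).

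Of 8 loading and trimming genes outside the rule, 4 fell on HFD in both genotypes and 0 rose. Over all genes 13.1% were called lower in BAd-KO and 15.2% in wild-type mice. The 4 were the trimming peptidase Erap1 (-0.55 in BAd-KO and -0.28 in wild-type mice, log2), the editor Tapbpl (-0.47 and -0.65), and the proteasome activator subunits Psme1 (-0.50 and -0.43) and Psme2 (-0.36 and -0.36). With library totals 0 of the 4 were called in either genotype, and 3, Erap1, Psme1 and Psme2, lay above 0 in wild-type mice (0.20, 0.04 and 0.11). Of the 3 constitutive proteasome subunits that the immunoproteasome replaces, Psmb6 fell in both genotypes (-0.20 and -0.36), Psmb7 fell in wild-type mice (-0.46), with values above 0 in both genotypes with library totals. Psmb7 was the 1 gene of these called by genotype, higher in HFD BAd-KO than in HFD wild-type mice (0.29 ± 0.06, adjusted p = 0.0426 in edgeR's quasi-likelihood test).

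On the class II route the lysosomal protease Ctss, which cuts the invariant chain, rose on HFD. It stood at 9.95, 11.3, 14.7, 6.03 and 26.6 CPM in HFD BAd-KO libraries against 3.51, 3.56 and 5.21 CPM in chow BAd-KO libraries, and at 13.5, 10.2, 25.2, 9.10 and 20.7 CPM in HFD wild-type against 5.80, 3.92, 3.09 and 3.72 CPM in chow wild-type libraries. No diet overlapped, and the log2 fold change was 1.74 ± 0.44 in BAd-KO (adjusted p = 0.00819 in edgeR's quasi-likelihood test) and 1.93 ± 0.39 in wild-type mice (adjusted p = 0.00167). Of 9 such genes 1 rose in BAd-KO mice, beside 12.8% of all genes called higher there and 16.9% in wild-type mice. In wild-type mice 3 rose, the others being the proteases Ctsh (0.86) and Lgmn (0.47), and 1, Ctsb, fell (-0.30, or 0.18 with library totals, not called).

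The factors that bind the MHC promoter module gave 0 calls of 7 in BAd-KO mice and 1 in wild-type mice, the NF-Y subunit Nfyc (-0.37, or 0.10 with library totals, not called). Rfx5, Rfxap and Rfxank, the RFX subunits, had log2 fold changes between -0.21 and 0.11 on HFD over chow and were not called. With library totals they were again not called in BAd-KO mice (0.11, 0.22 and 0.06), and all 3 were called higher in wild-type mice (0.59, 0.52 and 0.46). That fit called 10497 of all 17717 genes higher in wild-type mice. Of 5 tested costimulation genes Icosl, the ligand of ICOS, rose in both genotypes (1.03 in BAd-KO and 1.01 in wild-type mice), and Cd274, which encodes PD-L1, fell in BAd-KO mice (-0.88, or -0.63 with library totals, not called). Beside both lists, 12.8% of all genes were called higher and 13.1% lower in BAd-KO mice, and 16.9% and 15.2% in wild-type mice.

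Most interferon genes were not called. Of 20 genes of the interferon-γ response, 3 rose in both genotypes, a share near that of all genes called higher (12.8% in BAd-KO and 16.9% in wild-type mice). All genes called lower made up 13.1% and 15.2%. The 3 were the kinase Jak1 (0.24 in BAd-KO and 0.28 in wild-type mice), the receptor chain Ifngr2 (0.50 and 0.53) and the myeloid factor Irf8 (1.10 and 1.20). The receptor chain Ifngr1 fell in BAd-KO mice (-0.34, or -0.08 with library totals, not called). Irf1, an inducer of class I genes, was not called (0.01 ± 0.16 and -0.10 ± 0.15). Of 18 tested type I interferon genes the receptor chain Ifnar2 fell in both genotypes (-0.29 and -0.33, or -0.02 and 0.15 with library totals, not called), and Oas1a rose in wild-type mice (1.16).

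Markers of macrophages were also higher on HFD, and their part in the class II result was not tested. Of 12 macrophage markers 8 were called higher in BAd-KO and 9 in wild-type mice, with 0 lower, beside 12.8% and 16.9% of all genes called higher. The marker sum was 102 to 212 CPM in HFD BAd-KO against 71.2 to 99.0 CPM in chow BAd-KO libraries, and 122 to 271 CPM in HFD wild-type against 80.4 to 88.1 CPM in chow wild-type libraries. The growth factor receptor Csf1r rose by 0.81 ± 0.20 in BAd-KO and by 1.07 ± 0.18 in wild-type mice (log2), and Adgre1, which encodes F4/80, by 1.299 ± 0.30 and 1.52 ± 0.27. The median over the 12 was 1.05 and 1.07, beside 0.76 and 0.80 for class II. In a bulk sample more cells of a type and more RNA per cell cannot be told apart.

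**Figure D5:**
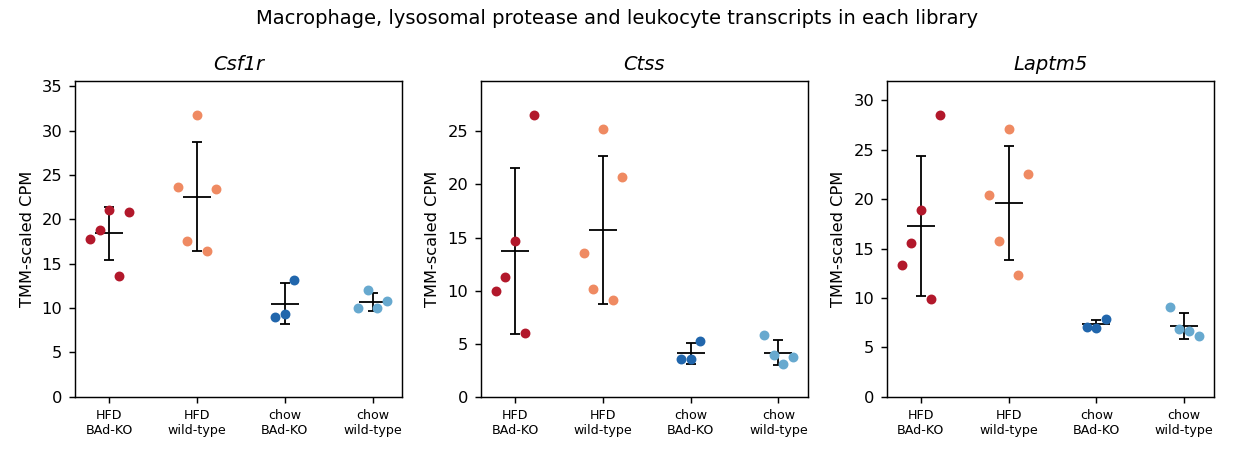
TMM-scaled CPM of Csf1r (macrophages), Ctss (lysosomal protease) and Laptm5 (leukocytes) in each library of HFD BAd-KO, HFD wild-type, chow BAd-KO and chow wild-type mice; points are libraries and black bars the mean ± SD of 5, 5, 3 and 4 libraries. Csf1r, Ctss and Laptm5 were higher on HFD without overlap within a genotype.

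Of 5 general leukocyte markers 2 rose in BAd-KO and 4 in wild-type mice, and Ptprc, which encodes CD45, was 0.95 ± 0.35 in BAd-KO (not called, adjusted p = 0.0582 in edgeR's quasi-likelihood test) and 0.92 ± 0.32 in wild-type mice (called, adjusted p = 0.0381). Of 7 lipid-associated macrophage markers 3 rose and 1 fell in BAd-KO mice and 5 rose in wild-type mice. Of 10 dendritic cell markers 1 rose in BAd-KO and 2 in wild-type mice, and Itgax, which the lipid-associated macrophage list shares, was called in both (2.25 and 3.13). Of 7 tested B cell markers 0 were called in BAd-KO and 2 in wild-type mice, Cd79a (1.02) and Fcmr (1.87), with sums of at most 3.17 CPM in any library. T and NK cell markers gave 0 calls of 8, and endothelial markers gave 4 and 7 calls of 10, all higher. The shares of all genes called higher, to set beside these lists, were 12.8% in BAd-KO and 16.9% in wild-type mice. In BAd-KO mice 13.1% were called lower.

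In each of the 4 groups 1 library was highest in most class II members. HFD BAd-KO library 5 was the highest of its group in 9 of 9 class II members and library 4 the lowest in 8, and library 5 also had the highest leukocyte sum (67.2 CPM, against 21.8 to 41.2 CPM in the other 4) and the highest T and NK cell sum (10.7 CPM, against 1.28 to 2.58 CPM). Class I members took another order in that group, with library 2 highest in 14 of 19, the library with the highest muscle marker sum. Library 4, with a muscle marker sum of 1340 CPM, was lowest in 9 of 19. In HFD wild-type mice library 1 was highest in 13 of 19 class I and 6 of 9 class II members and library 4 lowest in 13 and 7. There library 3, highest in 3 class II members, had the highest leukocyte and macrophage sums (62.6 and 271 CPM, against 44.8 and 188 CPM in library 1). In chow BAd-KO mice library 4 was highest in 16 of 19 class I and 9 of 9 class II members. In chow wild-type mice library 1 was highest in 14 of 19 class I and 5 of 9 class II members. There libraries 2, 3 and 4 were highest in 1, 1 and 2 class II members.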

How the data were processed

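RNA sequencing of BAT gave 1 library for each of 17 samples. The authors deposited whole-number counts per gene with no scaling, and the submitters' processing notes list GRCm39 as build and DESeq, RSEM 1.3.0, STAR 2.7.8a and FastQC as tools, without roles. The sources used here give neither annotation nor strand setting, and RSEM estimates would share reads among near-identical H2 genes. Members and gene lists were chosen with earlier results of these data known, and 1 gene of the interferon-γ list is not reported here.

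Counts were filtered with filterByExpr, scaled by TMM and fitted with edgeR 4.0.16 in R 4.3.3 (quasi-likelihood, 1 coefficient per group, all 17 libraries), and 6 contrasts were tested, two-sided, with Benjamini-Hochberg adjustment over 17717 genes and a threshold of 0.05. CPM are counts scaled to a common library size by TMM-scaled totals. Members were named with values if a group mean reached 10 CPM, if called, or if a transactivator. H2-T24 and members below that level are named beyond this rule, after their values were seen. Replicate spread, not counting error, limits most values. Alternatives were DESeq2 1.42.0, limma-voom (limma 3.58.1), other scalings and filters, and left-out libraries. The fit was tested on simulated data. Promoters came from RefSeq (GRCm38.p6).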

Additional observations from a re-analysis of the deposited data

Results flagged for a closer look

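Among 60 groups of 4 or 5 libraries of the named members, 6 held a library far from the others of its group, where chance gives about 1 in 20. HFD BAd-KO library 2 stood apart in 3 of them, with 16.0 CPM of Nlrc5 (next 10.9), 25.6 CPM of H2-Q4 (next 16.6) and 19.2 CPM of H2-Q6 (next 10.1). HFD wild-type library 1 stood apart in 2, with 20.4 CPM of H2-Q6 (next 10.4) and 26.6 CPM of H2-Q7 (next 12.2). These are the HFD libraries with the highest sums of skeletal muscle markers, 5192 and 3245 CPM, whose part in these values was not tested. HFD BAd-KO libraries 4 and 5, at 1340 and 1560 CPM, did not stand apart. Without these 4 libraries the class I median for diet was -0.04 in BAd-KO and 0.14 in wild-type mice, in place of 0.09 and 0.23. Class II medians were 0.70 and 0.79. All 4 are on HFD, so leaving them out cannot show what part muscle transcripts had. Chow wild-type library 4 stood apart with 102 CPM of Tapbp, where the nearest library had 134 CPM.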

How the results depend on the processing

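The counts of called members for genotype on chow, the interaction and the averaged genotype effect were 0 under all alternatives tried. Some of these could call hardly any gene. With the run as a term, 0 of all genes were called for the interaction, and 6 higher and 1 lower for the averaged effect. For genotype on HFD the member count was 1 with DESeq2, beside 264 higher and 324 lower of all genes, and 0 to 1 when 1 library was left out. For diet in wild-type mice, 9 members were called in the fit reported, 23 with library totals, and 7 to 13 without 1 library. Over all genes, library totals called 10497 higher and 426 lower there, in place of 2986 and 2699. For diet in BAd-KO mice, 8 were called in the fit reported, 5 with limma-voom, and 3 to 10 without 1 library. Over all genes, limma-voom called 1669 higher and 2168 lower there, in place of 2260 and 2319. Class II members higher in BAd-KO mice numbered 3 with limma-voom and 1 to 7 without 1 library, and in wild-type mice 4 with limma-voom. In wild-type mice limma-voom called 2407 higher and 2509 lower of all genes. Class I members higher in wild-type mice numbered 13 with library totals, 2 with DESeq2, 1 without the filter, 1 without chow wild-type 1 and 2, 1 without the 3 liver-rich libraries, 1 with only the groups compared, and 0 to 5 without 1 library. Class I members lower in wild-type mice numbered 1 with library totals, without the filter, without chow wild-type 1 and 2 and without the liver-rich libraries, and 1 to 3 without 1 library. Over all genes, DESeq2 called 3274 higher and 2947 lower in wild-type mice. The fit without the filter called 2886 and 2072 of 29418 genes. Without chow wild-type 1 and 2 it was 1945 and 1914 of 18124, and without the liver-rich libraries 2778 and 2493 of 17074. Class I members higher in BAd-KO mice numbered 2 with library totals, 1 with DESeq2, 1 with only the groups compared and 0 to 2 without 1 library, and those lower numbered 1 with library totals. Over all genes in BAd-KO mice, library totals called 5322 higher and 553 lower, and DESeq2 2657 and 2495. Counts over all genes were not taken for fits without 1 library or with only the groups compared. Signs turned with library totals for Tap2 in wild-type mice (0.23), H2-Ke6 (0.13 in BAd-KO and 0.10 in wild-type mice) and H2-K1 (0.088 in BAd-KO and 0.41 in wild-type mice). In wild-type mice H2-K1 was 0.11 without chow wild-type 1 and 2 and ranged from -0.18 to 0.047 without 1 library, above 0 without chow wild-type 1 or HFD wild-type 4. In BAd-KO mice it ranged from -0.28 to 0.015, above 0 without chow BAd-KO 4, and B2m in wild-type mice ranged from -0.00024 to 0.29, below 0 without chow wild-type 3. The causes were not tested, except that fewer samples enter where libraries are left out. H2-Q10 on diet was called under all 18 alternatives in BAd-KO and all 19 in wild-type mice.

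Each library's log2 deviations from its group mean were compared between BAd-KO and wild-type libraries of a diet. For equal replicate numbers these deviations, not the levels, correlated between -0.74 and 0.33. This gave no sign that the numbers pair the samples, though groups this small cannot settle it. With the replicate number as a block, 4 members were called for diet in BAd-KO mice, 2 of class II higher, and in wild-type mice 1 class I member was higher and 1 lower. Over all genes that fit called 1871 higher and 1850 lower in BAd-KO mice, and 2730 higher and 2417 lower in wild-type mice.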
